A study of Mus musculus with 6 samples.

Results

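Pfkfb3, Angptl4 and Chac1 are 3 genes of fuel and glutathione metabolism whose array features were chosen because the authors placed them in their list of features that differ between refed and fasted muscle. The symbols and feature identifiers of that list gave 3 members among its 134 named features, out of 470 listed features and 41345 features on the arrays. The data were log2 signals from the tibialis anterior, a shin muscle built mostly of fast fibres, of male C57Bl/6 mice aged 18 weeks fed rodent chow, with no allele named in the labels. All mice lost access to food at 1800 hr. The 3 fasted arrays, numbered 1, 3 and 5, came from mice kept without food until death. Their labels also give randomization at about 0800 hr and a further 4 hr without food. The 3 refed arrays, numbered 7, 9 and 11, came from mice allowed to eat for 30 minutes from about 0800 hr and then kept without food for a further 4 hr. The comparison asks how muscle gene expression differs some hours after a meal.

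The members act at separate points of fuel and glutathione metabolism. Pfkfb3 encodes a kinase and phosphatase that makes the fructose bisphosphate which activates phosphofructokinase, and so raises flux through glycolysis. Angptl4 encodes a secreted inhibitor of lipoprotein lipase, the enzyme that frees fatty acids from circulating triglyceride, and is known in muscle as a gene induced by fasting and by fatty acids through PPAR receptors. Chac1 encodes a cytosolic enzyme that splits glutathione, the main thiol antioxidant, and is a known target of the stress factor ATF4.

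RefSeq promoter windows were matched for 2 of the 3 members, Pfkfb3 and Chac1, and are shown so that the bases before their starts can be compared. In build GRCm38.p6 there were windows for 2 starts of Pfkfb3, 51839 bases apart, and for 1 start of Chac1. Each line below is the 250 bases before a transcript start, 5′ to 3′ on the strand of the gene. Capitals mark the hypoxia element ACGTG or the E-box CACGTG that contains it in Pfkfb3, and in Chac1 the C/EBP-ATF element TGATGNAA, which lies there on the opposite strand. The Pfkfb3 windows are chr2:11553930-11554179 for the upstream start and chr2:11502091-11502340 for the downstream start, both on the minus strand, and that of Chac1 is chr2:119350992-119351241 on the plus strand.
Pfkfb3 upstream start: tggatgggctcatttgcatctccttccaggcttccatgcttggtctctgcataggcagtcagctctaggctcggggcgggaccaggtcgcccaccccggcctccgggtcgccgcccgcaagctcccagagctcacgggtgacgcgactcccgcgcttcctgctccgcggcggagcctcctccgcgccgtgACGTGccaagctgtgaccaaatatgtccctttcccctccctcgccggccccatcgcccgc
Pfkfb3 downstream start: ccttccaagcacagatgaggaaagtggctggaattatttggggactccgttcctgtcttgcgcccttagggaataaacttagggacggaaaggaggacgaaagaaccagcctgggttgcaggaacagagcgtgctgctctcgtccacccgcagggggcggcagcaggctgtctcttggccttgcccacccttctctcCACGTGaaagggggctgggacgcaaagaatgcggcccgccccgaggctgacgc
Chac1: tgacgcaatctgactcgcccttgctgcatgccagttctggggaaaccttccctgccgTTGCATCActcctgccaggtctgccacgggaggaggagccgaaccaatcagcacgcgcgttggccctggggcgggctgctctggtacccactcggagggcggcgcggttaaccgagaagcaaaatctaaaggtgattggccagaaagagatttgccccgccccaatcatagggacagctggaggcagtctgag

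A match to such letters is a description of the sequence and not a site of binding. Of 32851 RefSeq windows of 300 bases, reaching from 250 before to 50 after a start, 3.97% held the C/EBP-ATF element on either strand, and Chac1 held 1 match, 193 bases before its start. The hypoxia element was present in 19.6% of all windows and in both Pfkfb3 windows, beginning 60 bases before the upstream start and 52 bases before the downstream start. At the downstream start these letters formed the E-box CACGTG, present in 7.15% of windows, so the element matched on both strands there. The GC box GGGCGG was found in all 3 windows and in 35.7% of all windows. No match in the 3 windows was found to AGAACA, a part of the glucocorticoid receptor motif (19% of all windows), or to the FoxO motif GTAAACA (3.65%). None was found to AGGTCA, a part of nuclear receptor motifs (16.3%), or to the cAMP element TGACGTCA (1.79%). The bases before the starts were rich in G and C, at 68.4% and 60.4% in Pfkfb3 and 60.8% in Chac1, against a median of 52.4% over all windows.

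**Figure D1:**
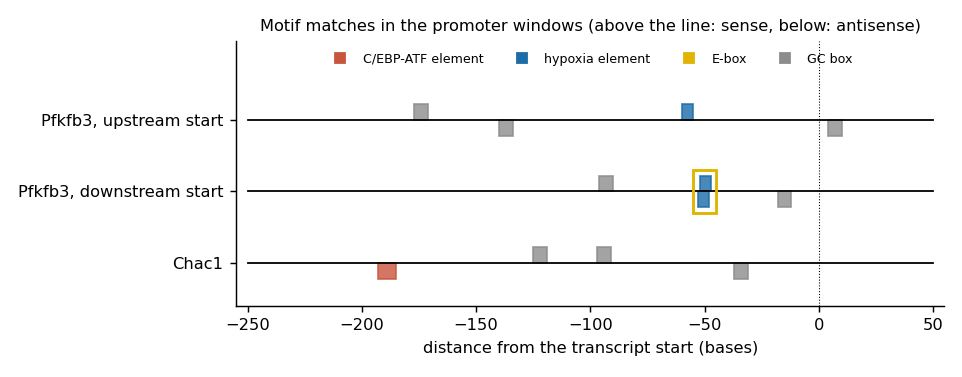
Motif matches (coloured blocks) in the RefSeq windows of Pfkfb3 and Chac1, by distance from the transcript start in bases, with sense matches above and antisense matches below each line and the palindromic E-box as an open frame. The C/EBP-ATF element appears in Chac1, beginning 193 bases before the start, and the hypoxia element in both Pfkfb3 windows.

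All 3 members had lower signal in refed than in fasted muscle, by about 1.76-fold to 2.06-fold. For each of them every refed array lay below every fasted array. The members were picked from a list made on this same contrast, so these differences are a description and carry no test. Over all features, 2076 or 5.02% had groups that did not overlap with refed lower, 2.12% were at least 1.5-fold lower in refed muscle, and 0.955% met both conditions. Among the 10337 brightest features, those above the 75th percentile of mean signal, all 3 members included, 35 met both conditions, or 0.339%. The limma test over all 41345 features called 0 at an adjusted p under 0.05 (0% of features, smallest adjusted p = 0.6865), and at an unadjusted p under 0.05 it found 1151 lower (2.78%) and 858 higher. A linear model without moderation also called 0, with 967 lower and 884 higher at the unadjusted threshold.

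Pfkfb3 (feature 17381630), the glycolytic regulator, had signals of 9.57, 8.92 and 9.16 on fasted arrays 1, 3 and 5 and of 8.43, 8.58 and 7.51 on refed arrays 7, 9 and 11 (log2). Refed array 11 was the lowest by more than the whole spread of the fasted arrays, while refed arrays 7 and 9 lay close to each other. The group means were 9.22 ± 0.33 in fasted and 8.17 ± 0.58 in refed muscle (SD, n = 3), a difference of -1.04 or 2.06-fold. Single refed and fasted arrays differed by as little as 1.27-fold and as much as 4.16-fold. Without refed array 11 the difference was -0.71.

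Angptl4 (feature 17343628), the lipoprotein lipase inhibitor, had signals of 8.27, 8.10 and 7.59 on fasted arrays 1, 3 and 5 and of 7.55, 6.997 and 6.91 on refed arrays 7, 9 and 11. Fasted array 5 and refed array 7 almost touched, 0.04 apart, so the separation of the groups was the narrowest of the 3 members. The means were 7.99 ± 0.35 and 7.15 ± 0.35 (SD, n = 3), a difference of -0.84 or 1.78-fold. The spread was alike in both groups, and the closest pair of arrays across the groups differed by 1.03-fold.

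Chac1 (feature 17374807), the glutathione-splitting enzyme, had signals of 8.42, 8.17 and 8.30 on fasted arrays 1, 3 and 5 and of 7.52, 7.76 and 7.14 on refed arrays 7, 9 and 11. The fasted arrays were the tightest group of any member, and refed array 11 was again the lowest. The means were 8.29 ± 0.12 and 7.48 ± 0.31 (SD, n = 3), a difference of -0.82 or 1.76-fold. The gap between the lowest fasted and the highest refed array, 0.41, was the widest of the 3 members, and that of Pfkfb3 was 0.34.

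**Figure D2:**
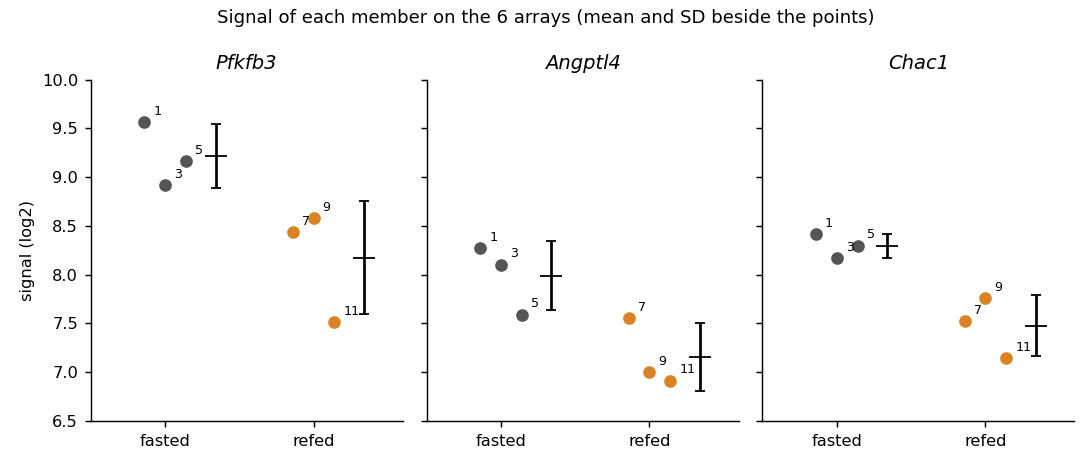
Log2 signal of Pfkfb3, Angptl4 and Chac1 on each fasted (grey) and refed (orange) array, labelled with its number, with the group mean and SD (n = 3) as a bar beside the points. The groups are 0.34 apart in Pfkfb3, 0.04 in Angptl4 and 0.41 in Chac1.

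The members also differed in how far replicates scattered. The pooled SD within groups was 0.47 for Pfkfb3, 0.35 for Angptl4 and 0.24 for Chac1 on the log2 scale, where the 1000 features nearest to each in signal had median SDs of 0.16, 0.15 and 0.15. Thus 98.1%, 93.2% and 81.2% of features of like signal had a smaller spread than Pfkfb3, Angptl4 and Chac1. Refed array 11 carried much of the scatter of Pfkfb3 and Chac1, whose pooled SDs were 0.27 and 0.14 without it. Ordered by difference over all features, from the most negative, Pfkfb3 was number 142, Angptl4 340 and Chac1 366. Of the 365 features more negative than Chac1, 350 were dimmer than it. Among the 1000 features nearest in signal, and counting the member, 3 were at least as low in refed muscle as Pfkfb3, 6 as Angptl4 and 2 as Chac1. The list behind the members was made on this same contrast, which favours such places and may also affect the spread. These shares, ranks and counts thus carry no test.

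**Figure D3:**
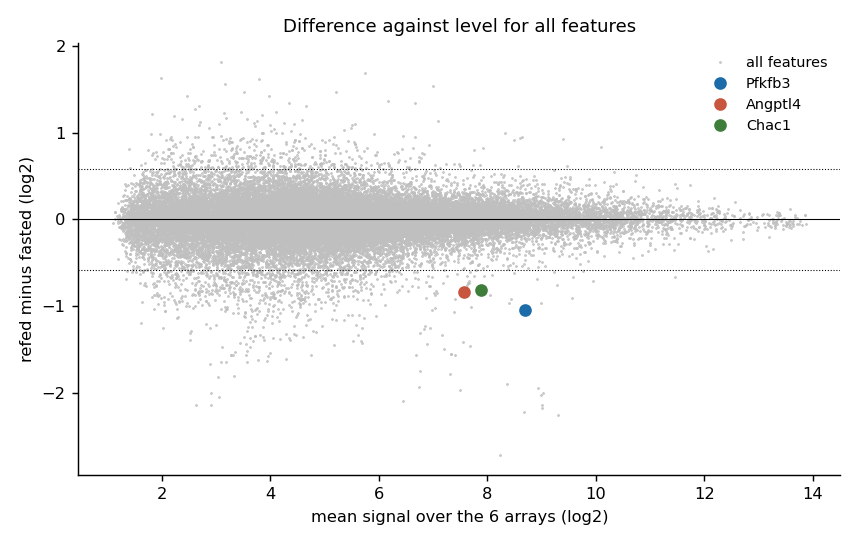
Refed minus fasted difference against mean signal (both log2) for all 41345 features (grey), with the 3 members in colour and dotted lines at 1.5-fold. The members lie below the lower line at -1.04, -0.84 and -0.82, among bright features that mostly scatter close to 0.

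No array taken out by itself turned a difference. Leaving out each array in turn gave differences of -1.24 to -0.71 for Pfkfb3, -1.03 to -0.69 for Angptl4 and -0.96 to -0.65 for Chac1. Pfkfb3 and Chac1 had the smallest difference without refed array 11 and the largest without refed array 9. Angptl4 had the smallest without fasted array 1 and the largest without refed array 7. Since the groups did not overlap, leaving out an array could not reverse these signs.

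**Figure D4:**
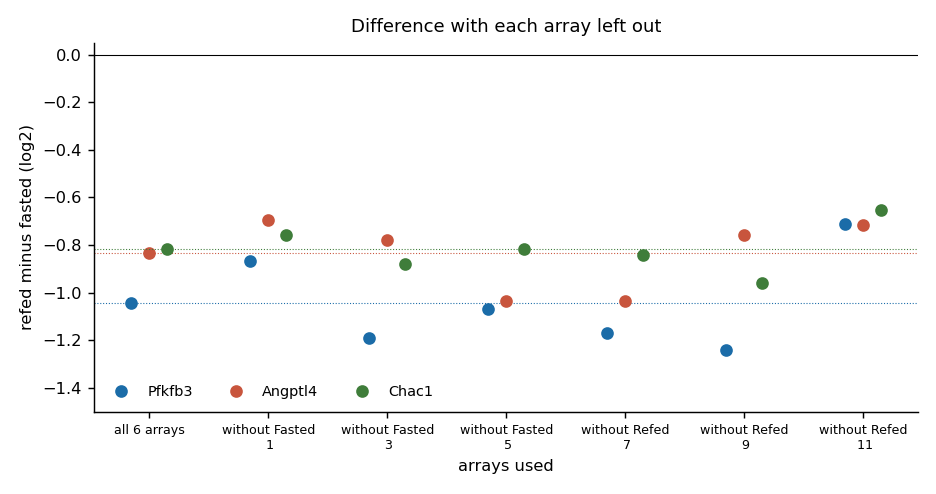
Refed minus fasted difference (log2) of each member with all 6 arrays and with each array left out, the dotted lines marking the values with all arrays. Pfkfb3 moves from -1.04 to -0.71 without refed array 11, and all points stay below 0.

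Within the groups, Pfkfb3 and Chac1 followed each other from array to array, whereas Angptl4 kept another order. The authors' list holds p-values, which depend on the size of deviations from the group means. The deviations may thus have entered the choice of members, and they are given as a description. For Pfkfb3 these were 0.35, -0.30 and -0.05 on fasted arrays 1, 3 and 5 and 0.26, 0.40 and -0.66 on refed arrays 7, 9 and 11. For Chac1 they were 0.12, -0.12 and 0.00 on the fasted and 0.05, 0.29 and -0.33 on the refed arrays, the same order in both groups at a smaller size. Pearson's r of the deviations of Pfkfb3 and Chac1 was 0.96 over the 6 arrays, and 0.568% of features followed Pfkfb3 at least as closely. Both values of a point come from the same array and RNA sample, RNA quality was not measured here, and removing the group means leaves 4 degrees of freedom. Without refed array 11 the value was 0.84, and without refed array 9 it was 0.99.

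The deviations of Angptl4 were 0.28, 0.11 and -0.40 on the fasted arrays and 0.40, -0.16 and -0.24 on the refed arrays. Its r was 0.44 with Pfkfb3 and 0.22 with Chac1, the latter turning to -0.31 without refed array 11. All 3 members were above the group mean on fasted array 1 and refed array 7, and below it on refed array 11.

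Of the 20 other named features at or above the median signal, those closest to each member within groups were found by a fixed rule that took the 3 with the highest r. The closest to Chac1 was Cyp26b1, an enzyme that breaks down retinoic acid, at r = 0.78, followed by the apelin receptor gene Aplnr at 0.52 and the transporter gene Slc10a6 at 0.34. Cyp26b1 was also closest to Pfkfb3, at 0.58, before Slc10a6 at 0.45 and the stress gene Gadd45g at 0.43. Closest to Angptl4 were Cish, an inhibitor of cytokine signalling, at 0.58, the myogenic factor gene Myod1 at 0.56, and Gabarapl1, which encodes an autophagosome protein, at 0.54. Apart from that of Cyp26b1 with Chac1, reached or passed by 6.08% of all features, these values were common in the table, being reached or passed by 16.3% to 28.6% of features. The value of Cyp26b1 with Chac1 was 0.36 without refed array 9 and 0.51 without refed array 11. Cyp26b1, Aplnr, Cish and Myod1 had higher signal in refed muscle, opposite to the members, so their likeness was to the scatter of replicates and not to the group difference.

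The other genes of the members' pathways were read from lists chosen with earlier results of these data known. Of 39 genes of glycolysis and its control, 38 of lipoprotein lipase and fatty acid use, and 32 of glutathione metabolism, the member itself was the 1 gene in each that had a named feature, and 0 passed the limma test in either direction. The ATF4 list of 35 genes had 2, Chac1 and Ddit4, an inhibitor of the growth kinase mTORC1. Ddit4 had means of 8.19 ± 0.61 in fasted and 6.62 ± 0.41 in refed muscle (SD, n = 3). Names come from the authors' list alone, so the signals of genes such as Angptl8, Lpl, Chac2, Pfkfb4 and Atf4 were not analysed here.

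The list for the glucocorticoid and fasting response had 9 of 33 genes with a named feature, all 9 with lower values in refed muscle and 0 past the limma test, with a median difference of -0.92 against 0.00052 over all features. The names came through a list selected on this contrast, which fixes the size of such a difference and in part its direction, so nothing is read from the median. Of the 134 named features 84 had lower values in refed muscle, and the median absolute difference of all 134 was 0.74. Besides Angptl4 the named genes of the fasting response list were Ddit4, Cebpd, Arrdc2, Arrdc3, Gadd45g, Trim63, Depp1 and Gabarapl1. Their differences ran from -1.95 for Depp1, a target of FoxO factors, to -0.66 for Trim63, a ubiquitin ligase of the sarcomere. Within the fasted group 7 of these 8 genes were highest on array 1, as were all 3 members. Within the refed group 7 of the 8 were highest on array 11, where all 3 members were lowest. Refed array 9, where Pfkfb3 and Chac1 were highest, was the lowest for 6 of the 8. How many of all features keep the same order of arrays was not counted, so nothing is read from these counts. The within-group r of the 8 genes ran from -0.64 to 0.25 with Chac1, from -0.51 to 0.43 with Pfkfb3 and from -0.05 to 0.54 with Angptl4.

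**Figure D5:**
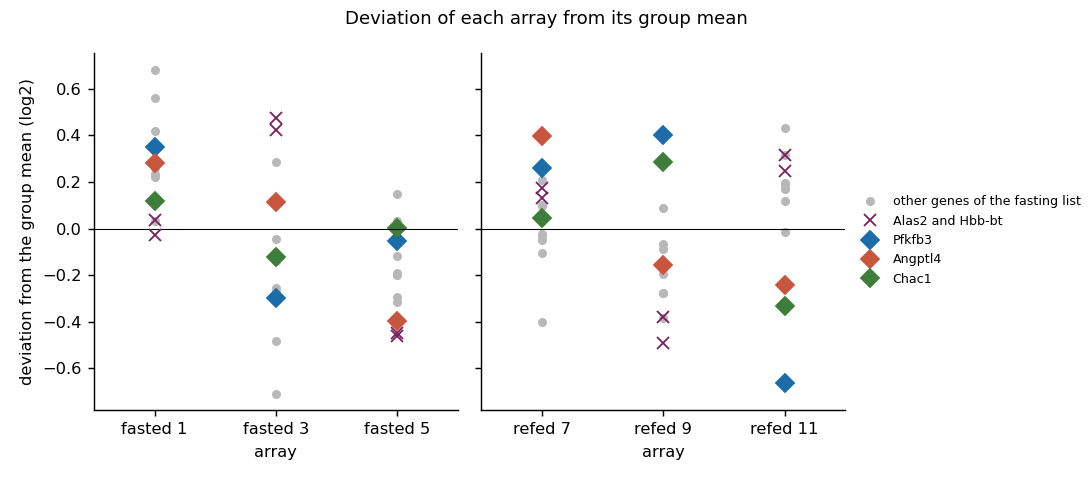
Deviation of each array from its group mean (log2) for the 3 members (diamonds), the 8 other genes of the fasting list (grey points) and the red cell transcripts Alas2 and Hbb-bt (crosses). On refed array 11 the members lie at -0.66, -0.24 and -0.33, while 7 of the 8 other genes lie above 0. The share of all features above 0 there was not counted.

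Of 14 markers of red blood cells, 2 had a named feature: Alas2, the erythroid enzyme of haem synthesis, and Hbb-bt, a beta globin. Both had lower values in refed muscle, with differences of -0.85 and -0.77, and 0 passed the limma test. They too are named only through the list selected on this contrast. Their summed signal, on the linear scale, ranged from 214 to 399 on fasted and from 124 to 201 on refed arrays. Within the refed group both were highest on array 11 and lowest on array 9, the reverse of Pfkfb3 and Chac1. Their r was -0.63 and -0.71 with Chac1, -0.50 and -0.58 with Pfkfb3, and 0.53 and 0.47 with Angptl4. Of all features, 87.6% and 91.4% had an r with Chac1 at least as high. These shares were 79.3% and 83.8% with Pfkfb3, and 21.2% and 24.8% with Angptl4. How many features keep this order of arrays was not counted, so nothing is read from it. The part of Alas2 and Hbb-bt in the differences of the members was not tested. None of the 10 markers each of muscle fibres, adipocytes, endothelium, fibroblasts, macrophages with neutrophils, and pericytes with smooth muscle had a named feature, so the tissue label was not checked against them. In a piece of muscle, fewer cells of a type and less RNA per cell cannot be told apart.

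The 6 arrays had median signals between 5.02 and 5.06. Pearson's r between arrays was 0.978 to 0.983 across features, which are not independent replicates. Estimated array weights, lower where an array scatters more, ran from 0.67 for fasted array 1 to 1.54 for fasted array 3. The labels leave unsaid whether every array stands for a separate mouse, so the SDs measure the spread between these arrays. All fasted arrays carry lower numbers than all refed arrays. If the numbers follow the order of handling, that order and the meal cannot be told apart.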

How the data were processed

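Per the labels' protocols, RNA was taken from about 25 mg of muscle, and 300 ng of it was biotin-labelled with a whole-transcript kit. The authors deposited 1 table of processed values for 41345 features on 6 arrays, taken as log2 signals from their range of 0.62 to 13.9. Partek appears in the submitters' processing notes without a version. How background was corrected, how arrays were normalized and which genome build was used is not given in the sources used here. Features were named through the symbol, identifier and accession columns of the authors' list of 470 features, and its fold and p-value columns entered no result. The list's accessions matched 73 RefSeq symbols, the 3 members among them, and 41211 features stayed unnamed.

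Groups were taken from sample titles. All features entered 1 fit (limma 3.58.1, R 4.3.3), by lmFit and eBayes with Benjamini-Hochberg adjustment and neither covariate nor filter. The fit was also run on simulated independent features drawn from its own model, which cannot show how it behaves on these arrays. The number of arrays limits the precision. Member values, SDs and correlations of deviations were computed with Python 3.11.15, and figures with matplotlib 3.10.9. Named genes other than the members included the 3 features closest to each member, among named features at or above the median signal. Predicted, clone, small RNA, pseudogene, olfactory receptor and vomeronasal receptor names were left out there. Members of fixed lists with a named feature were also named. Motifs were exact matches on both strands. The members and lists were chosen with earlier results of these data known. Alternatives covered normalization, filters, array weights, variance moderation, medians and leaving out each array.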

Additional observations from a re-analysis of the deposited data

How the results depend on the processing

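The differences of the 3 members kept their sign and moved by less than 1 within-group SD in all 30 values over 10 alternatives. Because the groups did not overlap, leaving out an array, medians and array weights could not reverse a sign. With 3 arrays per group, leaving out 1 array also cannot move a difference by 1 pooled SD, so those outcomes were fixed in advance. Quantile normalization, median centring, array weights and the use of medians gave -1.05 to -0.73 for Pfkfb3, -1.11 to -0.83 for Angptl4 and -0.82 to -0.76 for Chac1. Pooled SDs without 1 array ran from 0.27 to 0.54 for Pfkfb3, 0.29 to 0.40 for Angptl4 and 0.14 to 0.27 for Chac1, each of the lowest values for Pfkfb3 and Chac1 being without refed replicate 11. The limma count at an adjusted p under 0.05 was 0 in all 13 alternatives. At an unadjusted p under 0.05 lower features numbered 585 above the median signal and 238 above the 75th percentile, and higher ones 385 and 181, where fewer features were tested. Leaving out 1 array raised the features with non-overlapping groups and refed lower from 2076 to between 3733 and 4965, as fewer arrays overlap less often.

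Correlations within groups were less stable. Of 108 values over 12 pairs, 10 turned sign. With the group means left in, r was -0.67 for Angptl4 and Cish, -0.58 for Angptl4 and Myod1, -0.50 for Chac1 and Cyp26b1, -0.70 for Chac1 and Aplnr, and -0.42 for Pfkfb3 and Cyp26b1, pairs whose group differences have opposite signs. Without refed replicate 7 Angptl4 and Cish had -0.25. Without refed replicate 9 Chac1 and Aplnr had -0.14. Without refed replicate 11 the values were -0.0063 for Chac1 and Aplnr, -0.044 for Pfkfb3 and Cyp26b1 and -0.31 for Angptl4 and Chac1. The same pairs reached up to 0.97 for Angptl4 and Cish (without fasted replicate 5), 0.87 for Chac1 and Aplnr (without fasted replicate 3), 0.77 for Pfkfb3 and Cyp26b1 (without fasted replicate 1) and 0.65 for Angptl4 and Chac1 (without refed replicate 9). The cause was not tested for any of these. No paired analysis was possible because fasted and refed arrays have different replicate numbers.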

Other observations

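Other named genes of the authors' list ran against Chac1 within groups, and were picked out after their values were seen. The r of deviations with Chac1 was -0.79 for the aminopeptidase gene Aopep and -0.56 each for the phosphatase gene Cdc14a and the kinase gene Map3k6. Of all features, 94.4%, 83.8% and 84.1% had an r with Chac1 at least as high as those of Aopep, Cdc14a and Map3k6. Of the 22 other named features at or above the median signal, the remaining members included, 13 had an r below 0 with Chac1. An r below 0 was common over all features too, since only 49.0% had an r of at least 0.011 and 51.2% of at least -0.025.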
